A study of Mus musculus with 8 samples.

Results

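The SR proteins and the heterogeneous nuclear ribonucleoproteins (hnRNPs) are the main families of RNA-binding proteins that decide which splice sites of a pre-mRNA are used. Their genes were chosen by name: every protein-coding gene in the count table whose symbol begins with Srsf followed by a digit, or with Hnrnp. The rule took 31 genes, 11 Srsf and 20 Hnrnp, of the 55421 identifiers in the table, after 2 processed pseudogenes among 33 matches were left out. Of these 31 genes, 30 had enough counts to be tested, and Srsf12 did not.

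The cells were mouse embryonic stem cells of the line E14, of 129/Ola background and blastocyst origin. All 4 groups carried the same deletion of the microRNA cluster miR-290-295, and no group with an intact cluster was analysed here. They were grown on gelatin with serum and LIF, the cytokine that maintains self-renewal. With the reagent Lipofectamine RNAiMax, each culture received 5 nM of a siPOOL, which is a pool of many siRNAs directed at 1 mRNA, and was harvested after 36 hours. The groups are called siTfap4, siWiz, siZic2 and siNeg, the last with a negative control siPOOL, and each held 2 libraries that the series design describes as biological duplicates. Each knockdown used a single siPOOL, and the labels name no second reagent against the same transcript.

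SR proteins carry RNA recognition motifs and a domain of arginine-serine repeats. They usually bind exonic enhancers and help the spliceosome to define an exon, and kinases of the Srpk and Clk families phosphorylate their repeats. The hnRNPs bind sequences in exons and introns and often oppose SR proteins, although many act either way depending on where they bind. Genes of both families commonly produce transcripts with a premature stop codon or a retained intron, and several of the proteins limit their own amount in this way. Tfap4, a basic helix-loop-helix factor, binds the E-box CAGCTG, Wiz is a zinc finger partner of H3K9 methyltransferases, and Zic2 is a zinc finger transcription factor.

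The promoter sequences below are shown because several of these genes were lower in cells that received the Tfap4 siPOOL. Each is the window of 250 bases before to 50 after an annotated start, from RefSeq on GRCm38.p6, written 5′ to 3′ on the strand of the gene, with CAGCTG in capitals. Srsf4 (chr4:131873387-131873686, plus strand) was lower and its window holds the motif, while Srsf11 (chr3:158036557-158036856, minus strand) holds it and was not called. Srsf1 (chr11:88047123-88047422, plus strand) and Hnrnpl (chr7:28810640-28810939, plus strand) were lower and hold no match.
Srsf4: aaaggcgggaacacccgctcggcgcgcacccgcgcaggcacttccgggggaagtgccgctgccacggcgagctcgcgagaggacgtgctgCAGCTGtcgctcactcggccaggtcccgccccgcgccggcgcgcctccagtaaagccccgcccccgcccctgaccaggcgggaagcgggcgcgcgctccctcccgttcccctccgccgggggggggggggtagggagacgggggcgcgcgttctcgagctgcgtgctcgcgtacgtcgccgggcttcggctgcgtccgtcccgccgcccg
Srsf11: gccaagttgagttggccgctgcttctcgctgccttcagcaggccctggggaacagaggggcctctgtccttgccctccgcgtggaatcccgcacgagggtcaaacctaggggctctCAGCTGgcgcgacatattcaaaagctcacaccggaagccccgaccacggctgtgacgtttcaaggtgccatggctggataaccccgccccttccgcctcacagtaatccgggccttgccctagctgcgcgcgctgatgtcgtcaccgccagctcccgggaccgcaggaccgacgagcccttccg
Srsf1: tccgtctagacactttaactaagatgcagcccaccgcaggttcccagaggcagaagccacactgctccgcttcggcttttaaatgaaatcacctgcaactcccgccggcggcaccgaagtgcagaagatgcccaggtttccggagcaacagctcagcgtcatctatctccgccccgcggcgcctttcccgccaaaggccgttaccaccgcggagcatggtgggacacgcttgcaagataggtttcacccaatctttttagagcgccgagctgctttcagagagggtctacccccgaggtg
Hnrnpl: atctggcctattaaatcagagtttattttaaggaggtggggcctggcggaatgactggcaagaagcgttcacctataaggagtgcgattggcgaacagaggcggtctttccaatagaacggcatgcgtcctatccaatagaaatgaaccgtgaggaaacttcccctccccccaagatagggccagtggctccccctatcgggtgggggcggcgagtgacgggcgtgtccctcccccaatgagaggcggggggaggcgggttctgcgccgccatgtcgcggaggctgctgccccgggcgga

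RefSeq windows were found for 29 of the 31 genes, and those of Hnrnpul2 and Hnrnpll are named only. Searched on both strands, where CAGCTG reads the same, the motif lay in 5 of 41 windows, which belong to Hnrnpab, Srsf11 and Srsf4. That is 12.2% of the windows, against 16.3% of all 32851 windows in the RefSeq table. Among the genes lower with the Tfap4 siPOOL, 1 of the 7 with a window held it, against 18.3% of all 27025 genes with a window. The E-box CACGTG, a different hexamer that does not overlap with it, lay in 5 windows, also 12.2%, against 7.15% of all windows. These belong to Hnrnpa3, Hnrnpd, Hnrnpf, Hnrnph2 and Hnrnpm, none of which was called in siTfap4 against siNeg. A match, or its absence, describes only the letters of these windows, some of which overlap.

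Library totals ran from 8326675 to 13788856 counted reads, with both siTfap4 libraries at the low end (8326675 and 8829051). The siTfap4 libraries also stood apart in make-up: their 50 most abundant genes took 24.3% and 24.4% of the counts, against 20% to 22% elsewhere, and genes with a count numbered 19271 and 19432, against 19616 to 21170. The part of these differences in the results was not tested. Tfap4 counts were 97 and 134 with its own siPOOL and 402 and 386 with the control, and Tfap4 fell by 1.34 on the log2 scale (SE 0.25; adjusted p = 0.00417 by edgeR's quasi-likelihood test). Wiz counts were 188 and 206 with the Wiz siPOOL and 600 and 480 with the control, a log2 fold change of -1.40 that did not pass adjustment over all genes (SE 0.24; adjusted p = 0.708 in edgeR). Zic2 was low everywhere, with 31 and 17 counts in siZic2 and 54 and 23 in siNeg, a log2 fold change of -0.75 (SE 0.45; adjusted p = 1.00 in edgeR), so the Zic2 label was not checked by its target. All 10 pluripotent stem cell markers were detected in every group, with a sum of 3115 to 3670 CPM (TMM-scaled counts on a library size shared by all samples). Single markers differed within that sum: Nanog was at 77.6 and 178 CPM in siTfap4 and 399 and 314 in siNeg, and Pou5f1 at 57.4 and 48.1 CPM and 24.4 and 27.5. The 8 fibroblast markers summed to 7.62 to 12.2 CPM, and Postn was at 0 counts in all libraries. Primitive endoderm markers summed to 50.2 and 34.2 CPM in siTfap4 and to 31.9 and 27.6 in siNeg, with 2 and 4 of 8 at 1 CPM or more in both libraries. Most of each sum was Lama1, at 42.03 and 28.02 CPM in siTfap4 and 23.28 and 20.37 in siNeg. Foxa2 was also higher in siTfap4 (1.24 and 0.9379 against 0.5819 and 0.7688 CPM). Sox7 was lower (0.248 and 0.5862 against 2.494 and 1.441 CPM), as was Sox17 (0.124 and 0.1172 against 0.2494 and 0.8649). For the other markers of this list the groups overlapped. The part of these marker differences in the results was not tested.

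The first comparison asked how these genes behaved when Tfap4 was targeted. Against siNeg, 8 of the 30 tested genes fell (26.7%) and 0 rose, where a call is an adjusted p below 0.05 by edgeR over all 14647 genes tested. Over all genes, 11.7% were called lower and 4.24% higher. The genes that fell were 3 SR genes (Srsf1, Srsf4 and Srsf5), 2 of the G-run binding hnRNP F/H genes (Hnrnph1 and Hnrnph3), both genes of the hnRNP L pair (Hnrnpl and Hnrnpll) and Hnrnpa2b1. Their fitted decrease ran from 1.78-fold for Hnrnpll to 3.25-fold for Hnrnph3. Levels are CPM after TMM scaling and were compared only within a gene. Since each library is a whole culture, fewer cells with a transcript and less RNA in each cell cannot be told apart. The median log2 fold change of the 30 genes was -0.43, against 0.01 for all genes tested, and 23 of the 30 lay below 0, against 49.4% of all genes. In the comparisons where no gene was called, 21 of 30 lay below 0 in siWiz against siNeg, 23 in siWiz against siZic2 and 13 in siZic2 against siNeg. The shares of all genes below 0 were 50.2%, 48.8% and 50.4% in the same order.

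**Figure D1:**
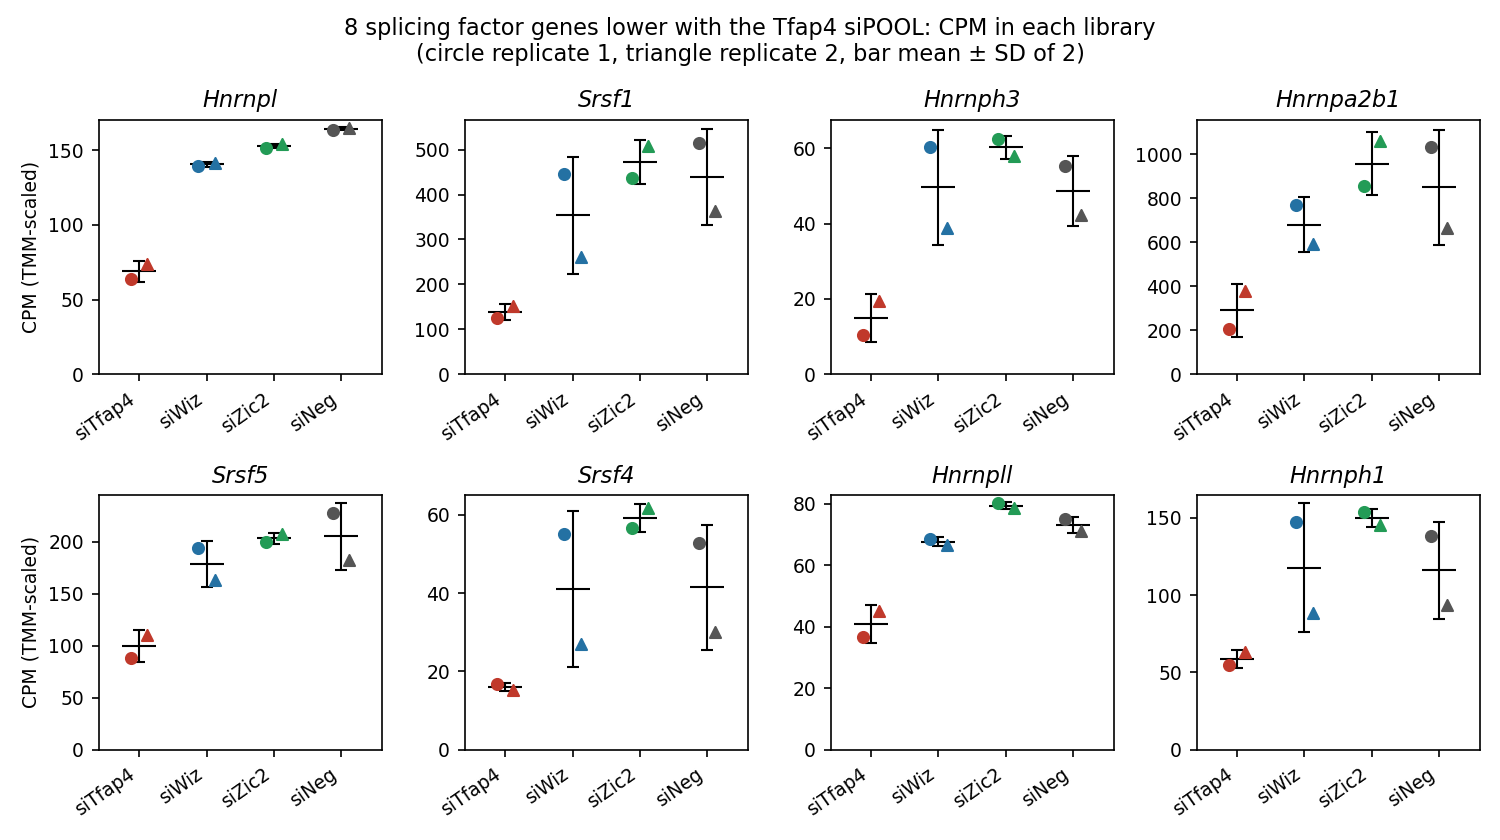
CPM (TMM-scaled, from 0) of the 8 genes lower in siTfap4 than in siNeg, in each of the 8 libraries (circles replicate 1, triangles replicate 2, bars mean ± SD of 2). In every panel both siTfap4 points lie below both siNeg points, and the 2 siNeg or siWiz libraries lie far apart for genes such as Srsf4.

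Srsf1, on chromosome 11 (88047373 to 88053755, GRCm38), encodes the founding SR protein, which acts in constitutive and alternative splicing. It stood at 125 and 152 CPM in the siTfap4 libraries, 514 and 363 in siNeg, 446 and 261 with the Wiz siPOOL and 438 and 507 in siZic2. Both siTfap4 libraries were below all 6 others. The fall was 3.17-fold against siNeg, a log2 fold change of -1.66 (SE 0.29; adjusted p = 0.00296 in edgeR).

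Srsf4, on chromosome 4 (131873617 to 131901706), encodes one of the longest SR proteins. Its levels were 16.7 and 15.4 CPM in the siTfap4 libraries, 52.8 and 30.1 in siNeg, 55.1 and 26.9 with the Wiz siPOOL and 56.7 and 61.6 in siZic2. The siTfap4 libraries were lowest, but the duplicates of siWiz and of siNeg differed from each other by 2.05 and 1.75 times. The log2 fold change was -1.37 (SE 0.35; adjusted p = 0.0194 in edgeR). An unnamed transcript model, Gm12992, overlaps its last 1000 bases on the opposite strand and had 0 counts in both siTfap4 libraries and 0 to 8 in all.

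Srsf5, on chromosome 12 (80945504 to 80950507), is an SR gene known to respond to insulin in other tissues. CPM values were 88.5 and 110 in the siTfap4 libraries, 228 and 182 in siNeg, 194 and 163 with the Wiz siPOOL and 200 and 207 in siZic2, so the siTfap4 pair did not overlap with any other group. The fall was 2.06-fold (log2 fold change -1.04, SE 0.23; adjusted p = 0.0110 in edgeR).

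The other 7 tested SR genes were not called. Srsf7, whose protein also helps to export mRNA, had 190 and 288 CPM in siTfap4 and 359 and 384 in siNeg (log2 fold change -0.64, adjusted p = 0.0906 in edgeR). Srsf9 differed widely between the siTfap4 libraries, at 57.2 and 153 CPM, against 158 and 203 in siNeg (-0.78, adjusted p = 0.153 in edgeR). Srsf3, Srsf6 and Srsf10 had log2 fold changes of -0.42, -0.31 and -0.43. Srsf2, the nuclear speckle protein also called SC35, and Srsf11 lay above 0, at 0.24 and 0.35. Srsf12, which encodes an SR-related protein that can oppose other SR proteins, had 0 and 0 counts in the siTfap4 libraries, 5 and 0 in siNeg, 4 and 1 with the Wiz siPOOL and 4 and 1 in siZic2, too few for a statement.

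The hnRNP F/H proteins bind runs of G near splice sites, and all 4 of their genes lay below 0, with a median log2 fold change of -1.49. Hnrnph3, on chromosome 10 (63014664 to 63024217), stood at 10.4 and 19.5 CPM in the siTfap4 libraries, 55.2 and 42.2 in siNeg, 60.4 and 38.9 with the Wiz siPOOL and 62.4 and 58.1 in siZic2. Its siTfap4 libraries were below all others, and the log2 fold change of -1.70 (SE 0.32; adjusted p = 0.00438 in edgeR) had the largest size among the 8 called genes. Its transcript end lies opposite to that of Rufy2, which had 128 and 123 counts in siTfap4 and 155 and 118 in siNeg and was not called.

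Hnrnph1, on chromosome 11 (50376990 to 50386528), is a widely expressed member of the group. Its values were 54.8 and 63.1 CPM in the siTfap4 libraries, 138 and 93.8 in siNeg, 147 and 88.2 with the Wiz siPOOL and 154 and 146 in siZic2. No siTfap4 value reached any other group, and the log2 fold change was -0.98 (SE 0.28; adjusted p = 0.0325 in edgeR).

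The other two F/H genes had few counts or duplicates that disagreed, and neither was called. Hnrnpf stood at 17.2 and 9.73 CPM in siTfap4 but at 53.6 and 12.7 in siNeg, so the groups overlapped (log2 fold change -1.30, SE 0.52; adjusted p = 0.103 in edgeR). Hnrnph2 stood at 1.74 and 2.11 CPM in siTfap4 and at 9.39 and 2.88 in siNeg (-1.68, SE 0.73; adjusted p = 0.129 in edgeR). In siNeg, replicate 1 was 4.23 times replicate 2 for Hnrnpf and 3.26 times for Hnrnph2.

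Both genes of the hnRNP L pair fell with close agreement between duplicates. Hnrnpl, on chromosome 7 (28808541 to 28822266), encodes a protein that binds CA repeats. It had 64.1 and 73.6 CPM in the siTfap4 libraries, 164 and 165 in siNeg, 140 and 142 with the Wiz siPOOL and 152 and 154 in siZic2. The siTfap4 values were far below the others, whose whole range was narrow, and Hnrnpl had the smallest p of the 30 genes (log2 fold change -1.25, SE 0.21; adjusted p = 0.00260 in edgeR). Hnrnpll, its paralog known for its part in Cd45 splicing in T cells, lies on chromosome 17 (80029487 to 80062334). CPM values were 36.6 and 45.3 in the siTfap4 libraries, 75.0 and 71.1 in siNeg, 68.7 and 66.6 with the Wiz siPOOL and 80.2 and 78.5 in siZic2. Here too siTfap4 did not overlap with any group, and the log2 fold change was -0.84 (SE 0.22; adjusted p = 0.0240 in edgeR).

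Hnrnpa2b1, on chromosome 6 (51460932 to 51469894), encodes a core hnRNP that also takes part in mRNA transport. Its levels were 205 and 376 CPM in the siTfap4 libraries, 1033 and 664 in siNeg, 767 and 590 with the Wiz siPOOL and 855 and 1058 in siZic2. The siTfap4 libraries were lowest although they differed from each other, with a log2 fold change of -1.55 (SE 0.32; adjusted p = 0.00738 in edgeR). The other A/B genes were not called: Hnrnpa0 at -0.25, Hnrnpa1 at -0.35 and Hnrnpa3 at 0.35 on the log2 scale.

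The other hnRNP genes were not called and spread to both sides of 0. Hnrnpk, which binds C-rich RNA, and Hnrnpu, a nuclear scaffold protein, had log2 fold changes of -0.66 (adjusted p = 0.148 in edgeR) and -0.57 (adjusted p = 0.105). Hnrnpab, Hnrnpc, Hnrnpr and Hnrnpul2 lay between -0.30 and -0.01. Hnrnpd, which binds AU-rich elements, Hnrnpdl, Hnrnpul1 and Hnrnpm lay above 0, at 0.15, 0.28, 0.26 and 0.42. The call left out 6 genes with an unadjusted p below 0.05: Hnrnpf, Hnrnph2, Hnrnpk, Hnrnpu, Srsf7 and Srsf9, all lower.

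**Figure D2:**
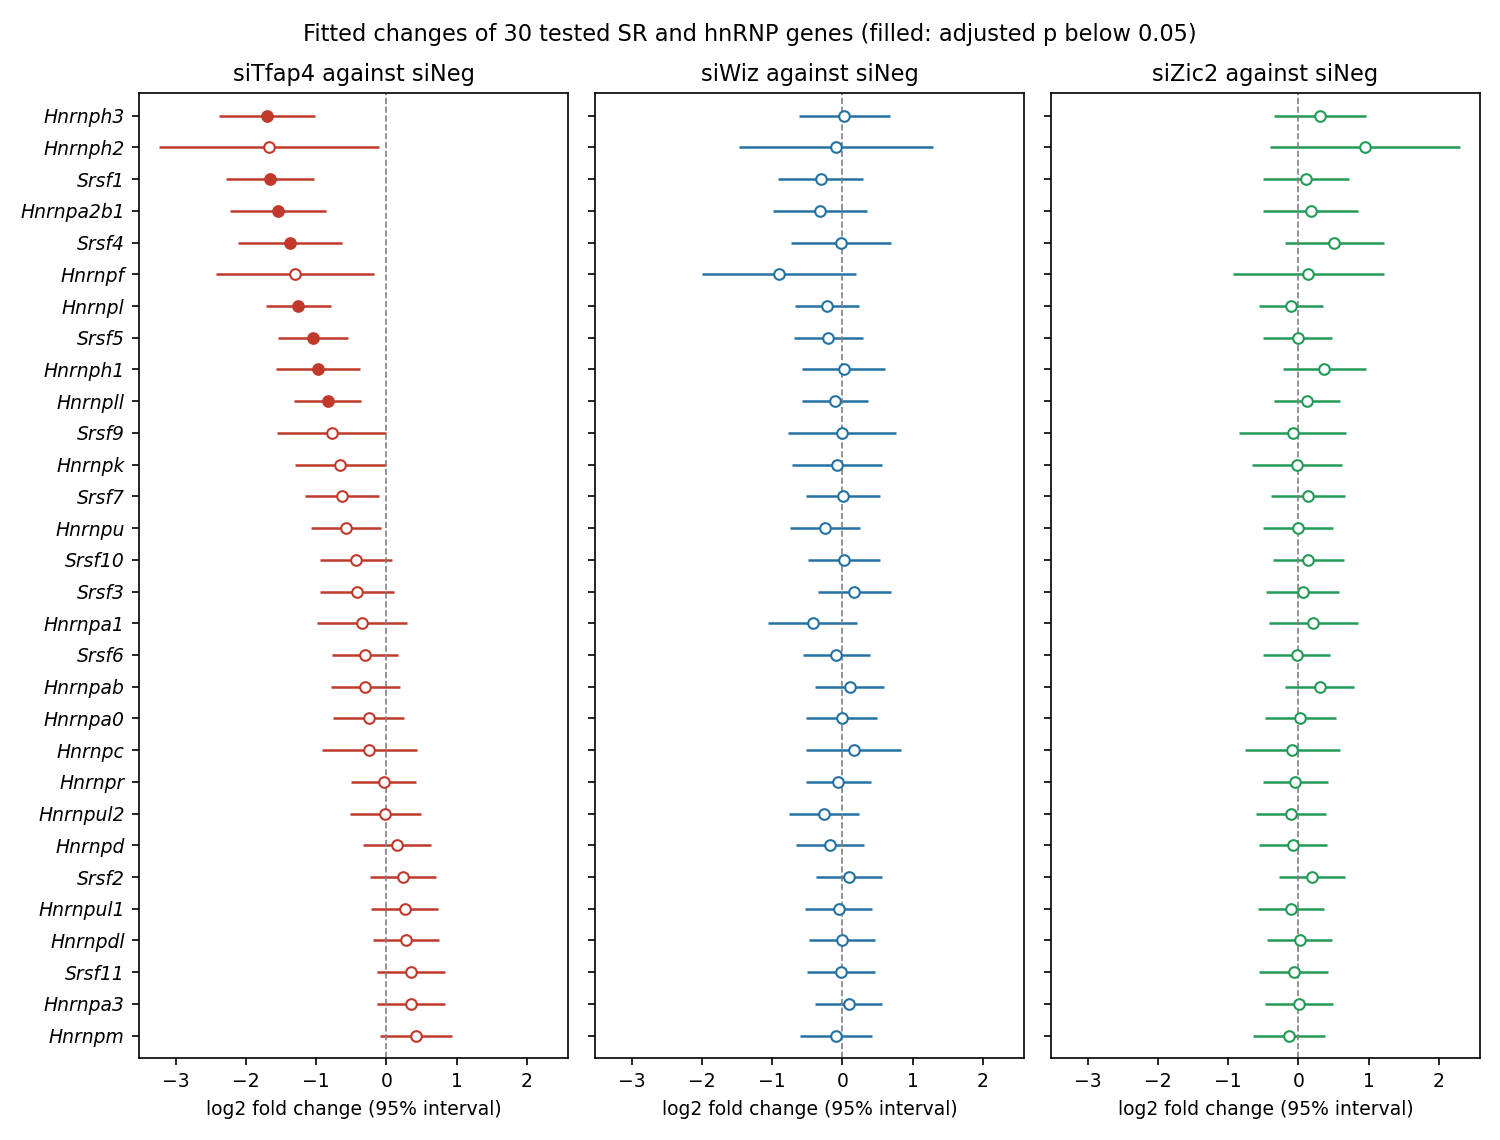
Log2 fold changes against siNeg (points, with 95% intervals) of the 30 tested genes in siTfap4, siWiz and siZic2, ordered by the siTfap4 value and filled where the adjusted p was below 0.05. The 8 filled points are all in siTfap4 and left of 0, while siWiz and siZic2 points cluster around 0 with wide intervals for Hnrnpf and Hnrnph2.

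Counted by library, both siTfap4 values lay below both siNeg values for 17 of the 30 genes and above them for 7, and 6 overlapped. Over all genes these shares were 29.5% below and 29.6% above. The 31 genes together took 0.789% and 0.899% of the counts in siTfap4, 1.16% and 1.03% in siNeg, 1.09% and 0.988% in siWiz, and 1.14% in both siZic2 libraries. The siTfap4 share was the lowest of the 4 groups and did not overlap with any other.

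**Figure D3:**
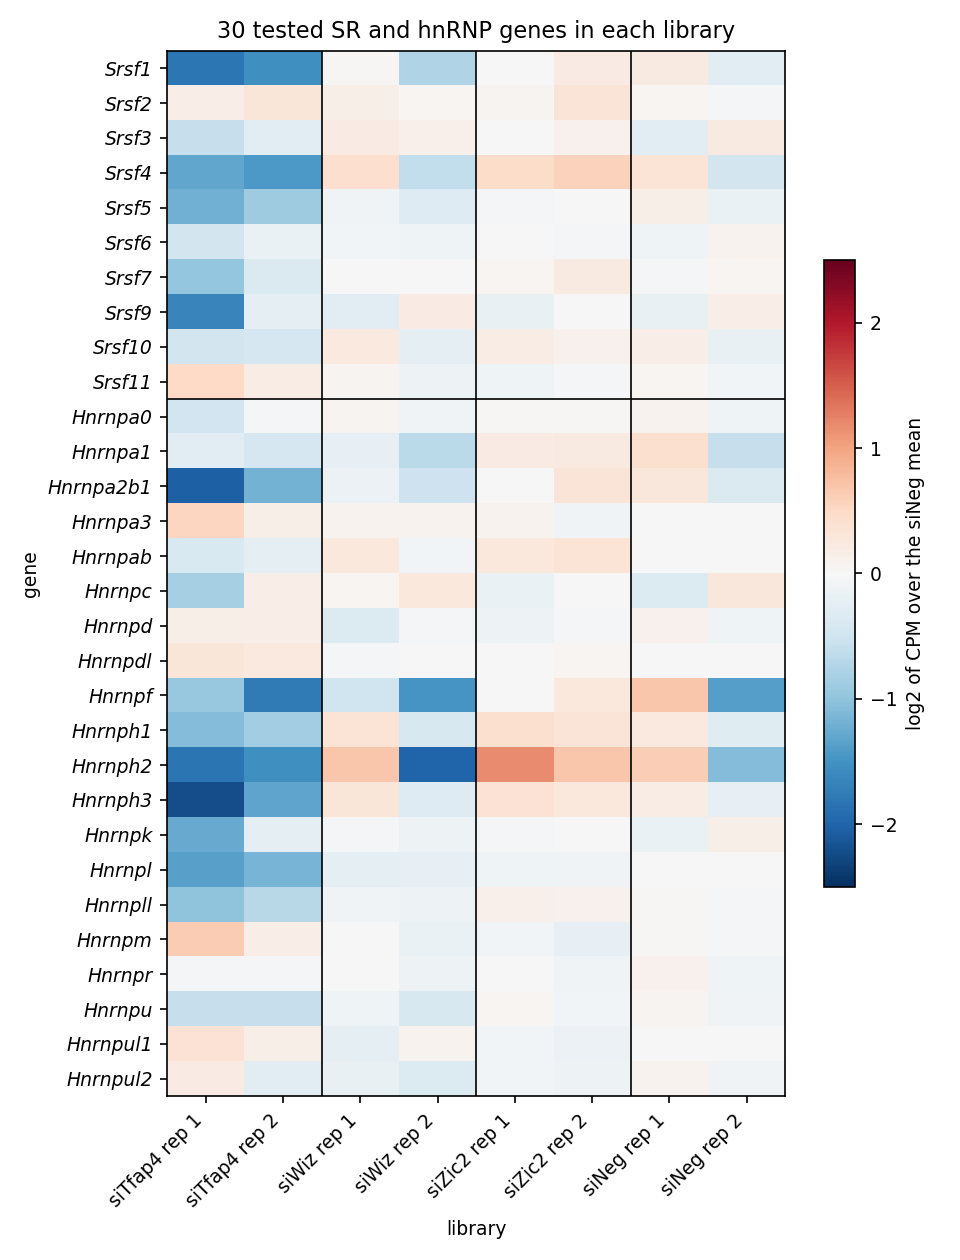
Log2 of CPM over the siNeg mean for the 30 tested genes (rows, Srsf above Hnrnp) in each library (columns, 2 per group). Blue marks values below the siNeg mean: both siTfap4 columns are blue for the 8 called genes, and the second siWiz and siNeg columns are also blue for Hnrnpf, Hnrnph2 and Srsf4.

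Duplicates differed for these genes in a way that touched the calls. In siNeg, replicate 1 was above replicate 2 for 21 of the 30 genes, including 7 of the 8 called ones, and in siWiz for 23, again including 7 of the 8. The excess was over 1.5 times for 5 genes in siNeg (Hnrnpa1, Hnrnpa2b1, Hnrnpf, Hnrnph2 and Srsf4) and for 6 in siWiz. In siZic2, where no gene had such an excess, replicate 1 was higher for 12 genes. The siTfap4 libraries tilted the other way: replicate 1 was higher for 11 of the 30 genes and for 1 of the 8 called ones, Srsf4, and the lowest ratio of replicate 1 to replicate 2 among the 8 was 0.535, for Hnrnph3. All 8 called genes were lower in siTfap4 replicate 1 than in siNeg replicate 1, and also in replicate 2 than in replicate 2. These genes were called by the difference between the same libraries, so this is no separate check of the calls.

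Leaving out siNeg replicate 1 or siTfap4 replicate 1 left 3 calls, Hnrnph3, Hnrnpl and Srsf1, in place of 8. With these libraries out in turn, the largest adjusted p in edgeR among the 3 was 0.0456, and the lost calls ranged from 0.0641 for Hnrnpa2b1 to 0.241 for Hnrnph1. Without siTfap4 replicate 2 the count was 11, with Hnrnpk (-1.28), Srsf7 (-0.98) and Srsf9 (-1.67) added. Hnrnpf was added without siNeg replicate 2 (-2.01, adjusted p = 0.00683 in edgeR), and Hnrnph2 without either siWiz library (-1.67 and -1.69). Without either siZic2 library, 6 calls were left, Hnrnph1 (adjusted p = 0.0552 and 0.0545 in edgeR) and Hnrnpll (0.0541 and 0.0542) being lost. Over all genes, too, fewer were called lower without siNeg replicate 1, siTfap4 replicate 1 or either siZic2 library, and more without siTfap4 replicate 2. In these fits the members' counts moved the same way as those over all genes. Such moves are therefore not particular to the members. A tested minimum of 1.5-fold left 4 calls, those of Hnrnpa2b1, Hnrnph3, Hnrnpl and Srsf1, where 4.94% of all genes were called lower. A fit of siTfap4 and siNeg alone lost Hnrnpll (adjusted p = 0.0643 in edgeR) and gained Hnrnph2, with 10.5% of all genes lower. Hnrnph3, Hnrnpl and Srsf1 passed under all 18 alternatives, with log2 fold changes from -2.24 to -1.33, -1.37 to -0.90 and -1.90 to -1.37.

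The ends of these transcripts, from which the libraries are read, are AT-rich. The last 300 bases of the reference transcript had a median GC content of 34% over the members, against 42.7% over 12483 tested protein-coding genes, and 28 of the 30 tested genes lay below that median. Across those 12483 genes, which are not independent replicates, GC content and the siTfap4 log2 fold change had a Spearman correlation of 0.366. With offsets that remove the trend with GC content and length, that value was 0.006. In the corrected fit 6 genes were lower and 5 were higher, against 13% and 7.7% of all genes in that fit. Hnrnpa2b1 (-1.14), Hnrnph3 (-1.34), Hnrnpl (-0.90), Srsf1 (-1.41), Srsf4 (-1.07) and Srsf5 (-0.62) stayed called. Hnrnph1 (-0.58, adjusted p = 0.0736 in edgeR) and Hnrnpll (-0.50, adjusted p = 0.0864) did not. The 5 higher calls, absent without the correction, were Hnrnpa3 (0.79), Hnrnpm (0.73), Srsf11 (0.70), Hnrnpdl (0.63) and Srsf2 (0.62). The median of the 30 genes moved from -0.43 to -0.21.

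**Figure D4:**
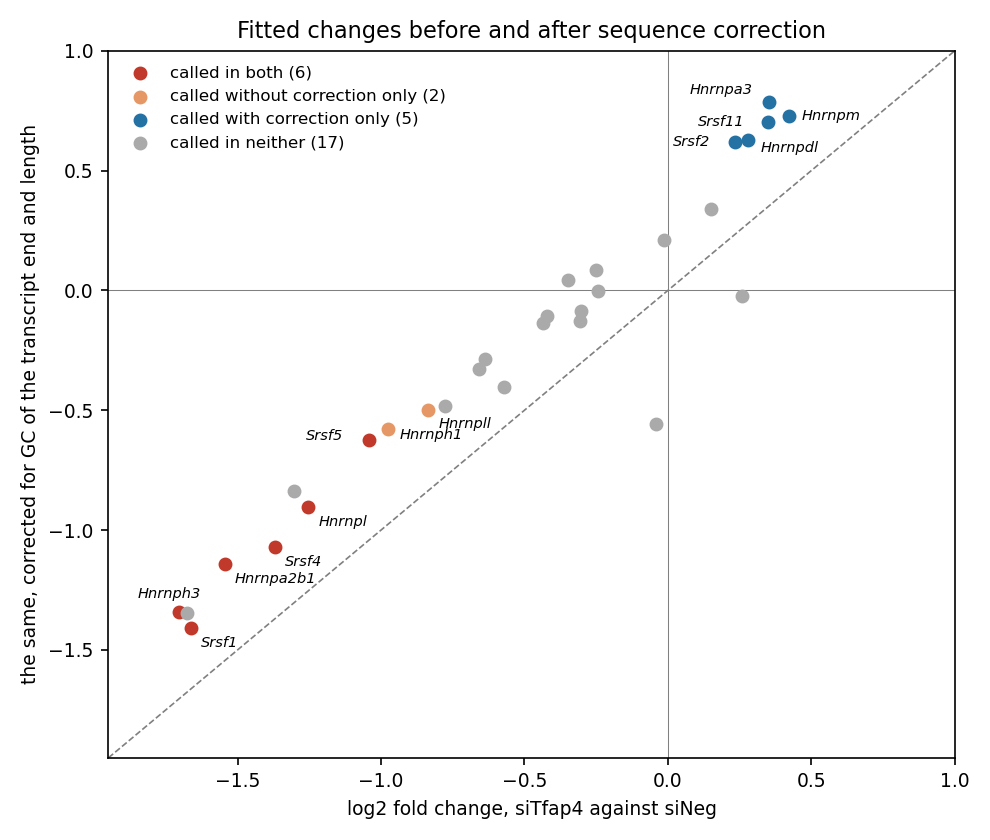
Log2 fold change of each tested gene in siTfap4 against siNeg (horizontal axis) and the same value after correction for GC content of the transcript end and for length (vertical axis), with equality dashed. All points but those of Hnrnpr and Hnrnpul1 lie above the dashed line, 6 genes are called lower in both fits, and 5 genes above 0 are called with the correction only.

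Against siNeg, siWiz gave 0 of 30 genes lower and 0 higher, and over all genes 0% were called in either direction. At an unadjusted p below 0.05 there were 0 of these genes and 266 of all genes, and DESeq2 also called 0 of them. The members' median log2 fold change was -0.06, and 29 of the 30 lay within 0.5 of 0. The smallest p belonged to Hnrnpf, at 23.4 and 11.9 CPM in siWiz and 53.6 and 12.7 in siNeg (log2 fold change -0.91, 95% interval -2.0 to 0.19; adjusted p = 1.00 in edgeR). Next was Hnrnpa1, a shuttling hnRNP, at 68.8 and 49.8 CPM in siWiz and 106 and 53.5 in siNeg (-0.43, 95% interval -1.06 to 0.21). In both cases siNeg replicate 1 stood above the other 3 libraries, and without it the log2 values were 0.50 for Hnrnpf and 0.16 for Hnrnpa1.

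In siZic2, too, 0 genes were called lower and 0 higher, against 0% of all genes in either direction. None had an unadjusted p below 0.05, against 86 of all genes, and DESeq2 called 0. The median was 0.02, and 28 of the 30 lay within 0.5 of 0. Srsf4 had the smallest p, at 56.7 and 61.6 CPM in siZic2 and 52.8 and 30.1 in siNeg (log2 fold change 0.51, 95% interval -0.20 to 1.22; adjusted p = 1.00 in edgeR). Hnrnph2 followed, at 13.9 and 9.90 CPM against 9.39 and 2.88 (0.95, 95% interval -0.40 to 2.30). Both siZic2 values were above both siNeg values in each gene.

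Targeting Tfap4 rather than Wiz gave 8 genes lower and 0 higher, where 10.4% of all genes were lower and 4.66% higher. These were the same 8 genes as against siNeg. Of 18 alternatives, 9 lost the call of Hnrnpll, 7 that of Srsf5 and 5 that of Hnrnph1. Each of the other called genes lost its call under 1 to 3. The smallest p belonged to Hnrnph3 (log2 fold change -1.73, SE 0.32; adjusted p = 0.00461 in edgeR), Hnrnpl (-1.03), Srsf1 (-1.35) and Srsf4 (-1.35). Both comparisons use the siTfap4 libraries, so they are not independent. Without siWiz replicate 1 the count was 0, and without siTfap4 replicate 1 it was 1. Leaving out a siZic2 library also changes the genes tested, the scaling and the shared estimate of the spread. Without either one, Hnrnph1, Srsf5 and Hnrnpll lost their calls. Their log2 fold changes without siZic2 replicate 1 were -0.99, -0.84 and -0.72.

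Between siTfap4 and siZic2, 10 genes were lower and 0 higher, against 14.7% and 8.41% of all genes. The 8 genes named above were among them, led by Hnrnph3 (-2.01, SE 0.32; adjusted p = 0.00125 in edgeR), Srsf1 (-1.77), Srsf4 (-1.88) and Hnrnpl (-1.15). Of these 8, Hnrnpll lost its call under 5 of 18 alternatives, Srsf5 under 3 and Hnrnph1 under 1. The rest of the 8 kept theirs under all 18. The 2 further genes were Hnrnph2 (-2.63, at 1.74 and 2.11 against 13.9 and 9.90 CPM; adjusted p = 0.0199 in edgeR) and Srsf7 (-0.77, at 190 and 288 against 382 and 435 CPM; adjusted p = 0.0369). Without siTfap4 replicate 1 the count was 5, and without either siZic2 library it was 7. The Srsf7 call was lost under 6 of 18 alternatives, among them GC and length correction (-0.34, adjusted p = 0.219 in edgeR), leaving out siTfap4 replicate 1 (-0.51, 0.242), siWiz replicate 2 (-0.78, 0.0530) or either siZic2 library (0.106 and 0.195). Hnrnph2 was lost without siTfap4 replicate 1 (adjusted p = 0.128 in edgeR), without siZic2 replicate 1 (0.0883) and with a 1.5-fold minimum (0.0510).

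Between siWiz and siZic2, 0 genes were called either way, against 0% of all genes. One gene had an unadjusted p below 0.05 in edgeR, against 384 of all genes, and DESeq2 called 0. That gene was Hnrnpa1, at 68.8 and 49.8 CPM in siWiz and 91.9 and 92.5 in siZic2 (log2 fold change -0.64, SE 0.30; adjusted p = 1.00 in edgeR).

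The annotation gives most of these genes a transcript that ends in nonsense-mediated decay. In GENCODE M21 such a transcript was annotated for 19 of the 31 genes (61.3%), for 9 of 11 Srsf and 10 of 20 Hnrnp genes, and for 28.3% of the 12486 tested protein-coding genes. Of the 8 genes called lower in siTfap4, 7 had one, Hnrnph1 being the exception. With retained-intron transcripts added, the share was 24 of 31 (77.4%) against 64.4%. Counts of transcript ends were summed per gene, so productive and decaying forms were not separated.

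Near-identical copies could split or add reads for some genes. Hnrnpa3 alone shared at least 200 of the last 300 bases, at 90% identity or more, with other annotated genes (2 of them). Over the whole transcript, its end included, 12 of the 31 genes shared at least 300 bases at 95% identity with another gene. Hnrnpa3 led with 25 genes, followed by Hnrnpa1 with 8 and Hnrnpf with 6. Of the called genes, only Srsf5 did, with 1 gene. An annotated gene overlapped the last 1000 bases of 6 genes, and the strand setting of the counting is not given in the sources used here. These were Rufy2 for Hnrnph3, Gm12992 for Srsf4, Phykpl for Hnrnpab, Cox20 for Hnrnpu, Mettl23 for Srsf2 and, on the same strand, AC129217.1 for Hnrnpul2, which was at 0 counts in every library. Gm12992 and AC129217.1 had too few counts to be tested, and none of the other overlapping genes was called in siTfap4 against siNeg.

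Genes of 7 other lists of splicing factors were called in both directions in siTfap4 against siNeg, where 11.7% of all genes were lower and 4.24% higher. Of 7 tested SR protein kinases and importer genes, 0 were lower and 1 was higher (median 0.40). That gene was Clk2, a nuclear kinase of the arginine-serine repeats, at 47.6 ± 15.3 CPM in siTfap4 and 26.1 ± 0.278 in siNeg (SD, n = 2; log2 fold change 0.86, adjusted p = 0.0441 in edgeR). Among 25 genes of SR-related proteins, 0 were lower and 1 was higher (median 0.19): Rnps1, an exon junction component, at 48.5 ± 13.5 against 25.5 ± 1.24 CPM (SD, n = 2; 0.93, adjusted p = 0.0454 in edgeR).

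Among 13 hnRNP proteins under other symbols, 1 was lower and 2 were higher (median 0.28). Rbmxl1, a retrogene relative of Rbmx, fell from 99.5 ± 7.79 to 14.5 ± 10.2 CPM (SD, n = 2; log2 fold change -2.77, adjusted p = 0.00139 in edgeR), while Rbmx itself was at 5.96 and 7.26 CPM and not called. Whether reads of this pair were split correctly was not tested. The higher genes were Pcbp3, a poly-C binding protein (1.29), and Cirbp, a cold-inducible RNA-binding protein (0.93).

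The list of 25 Sm, U1 and U2 snRNP genes held 6 lower and 3 higher (median -0.14). Smallest in p were Sf1, which recognises the branch point (106 and 122 CPM in siTfap4, 399 and 296 in siNeg; log2 fold change -1.61), and the U2 components Sf3b5 (-2.63) and Sf3b6 (-2.55). Of 27 tri-snRNP and catalytic genes, 1 was lower and 0 higher (median 0.20), namely Prpf8, the scaffold of the catalytic centre (-1.36, adjusted p = 0.00625 in edgeR).

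Of 18 other tested splicing regulators, 2 were lower and 1 higher (median -0.14): Rbm47 (-1.30) and Tardbp (-1.19), both RNA-binding regulators, and Mbnl2 (0.81), a muscleblind protein. Among 15 genes of nonsense-mediated decay and the exon junction, 1 was lower and 3 were higher (median 0.04). Smg8, a regulator of the kinase Smg1, fell by 3.36 on the log2 scale to 0.620 and 2.70 CPM from 19.0 and 15.7, and Smg9 (1.15) rose. In siWiz and siZic2 against siNeg, 0 genes of these 7 lists were called.

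**Figure D5:**
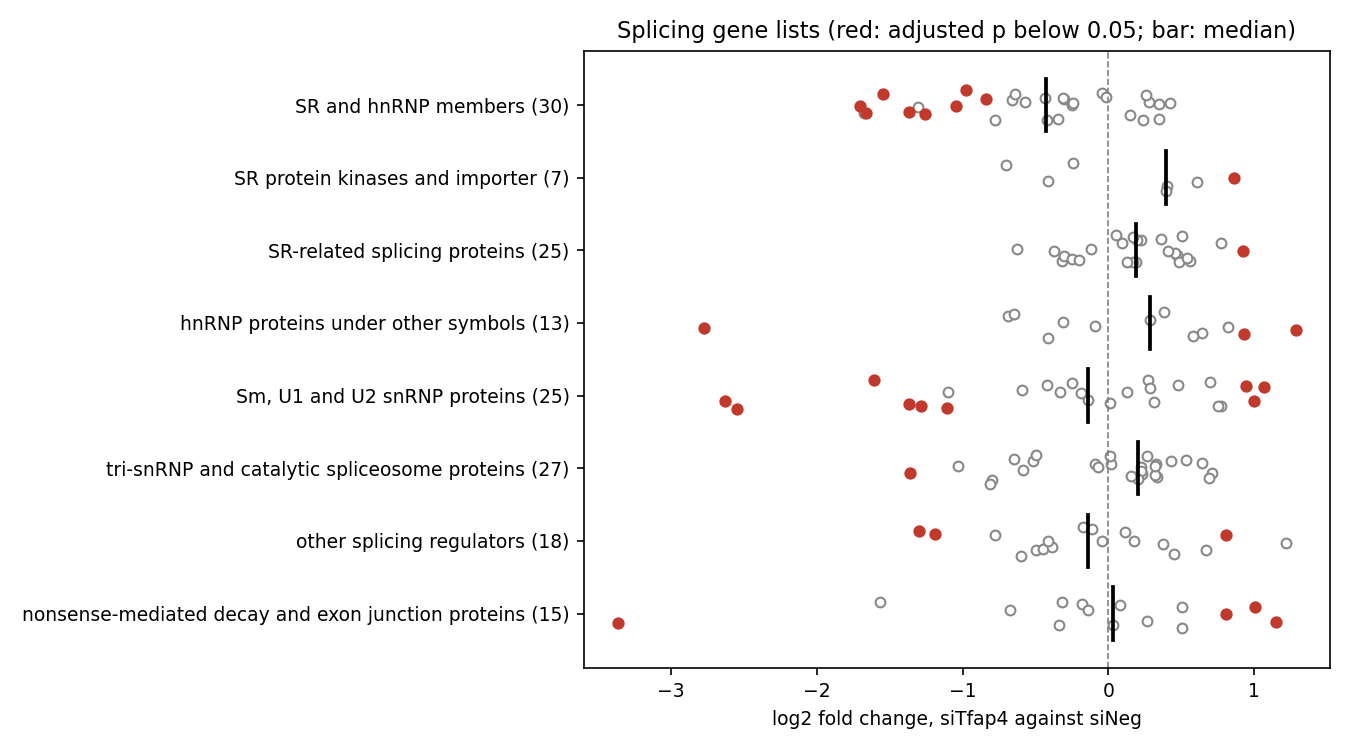
Log2 fold changes in siTfap4 against siNeg of the 30 tested SR and hnRNP genes and of 7 lists of other splicing genes (rows, with the number tested; points are genes, red where the adjusted p was below 0.05, bars are medians). The SR and hnRNP row has its median at -0.43 and all its red points left of 0, while the lists below have medians from -0.14 to 0.40 and red points on either or both sides. All values shown are without correction for GC content and length. With it, 6 of the 30 genes were lower and 5 higher, against 13% and 7.7% of all genes, and their median was -0.21. The lists were not examined in that fit.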

How the data were processed

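QuantSeq 3′ FWD libraries, primed at the poly(A) tail, came from 500 ng of Trizol-extracted RNA, per the labels' protocols. The authors deposited raw counts per Ensembl gene. Trim Galore and GRCm38 are named, without a version, per the submitters' processing notes. The sources used here give neither an aligner or counter nor a strand setting or any use of molecular identifiers. All 8 columns matched samples by name (0 left out), and 55240 of 55421 identifiers matched GENCODE M21.

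Counts were filtered with filterByExpr, TMM-scaled and tested with edgeR 4.0.16 (quasi-likelihood; R 4.3.3), using 1 mean per group, all 8 libraries and no block. Benjamini-Hochberg adjustment ran over 14647 genes per comparison, at a threshold of 0.05. The dispersion shared by all genes was 0.0495 (coefficient of variation 22.2%). The scripts were tested on simulated data. Duplicates were not repeats of 1 library, since chi-square over degrees of freedom was 17.7 to 37.7. If cultures were not separate, p-values measure technical spread only. Shared sequence was searched with BLAST 2.17.0.

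Values per library are given for genes called against siNeg (up to 8 per direction in siTfap4 and 4 in siWiz and siZic2, or the 2 with the smallest p where none was called). Up to 4 called genes were named per pair of siPOOLs and up to 3 per list, by smallest p; 1 gene of a list is not reported here. Other genes given with values were chosen after those values were seen. The members, lists and rules were chosen with earlier results of these data known.

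Alternatives were RLE size factors, library totals, 2 other filters, a fit of only the groups compared, a block for the replicate number, leaving out each library, DESeq2 1.42.0, protein-coding genes alone, correction for GC content and length (splines with 4 degrees of freedom), a 1.5-fold minimum, and members without a shared transcript end.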

Additional observations from a re-analysis of the deposited data

How the results depend on the processing

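Of 218 counts of called genes recomputed under the alternatives, 203 stayed within 1.5 times their value, those that stayed at 0 included. Many were 0 throughout: no member was called in siWiz or siZic2 against siNeg, or between siWiz and siZic2, under any alternative. For genes lower in siTfap4, 3 of 19 counts moved further against siNeg, 5 of 18 against siWiz and 2 of 18 against siZic2. The exceptions were as follows. With a 1.5-fold minimum, 4 genes were lower in siTfap4 than in siNeg, 1 than in siWiz and 6 than in siZic2; fewer genes can pass such a minimum by construction. With correction for GC content and length, 5, 3 and 4 genes were higher in siTfap4 than in siNeg, siWiz and siZic2. With a library left out, genes lower in siTfap4 ranged from 3 to 11 against siNeg, from 0 to 12 against siWiz and from 5 to 12 against siZic2, and genes higher than in siZic2 from 0 to 1. Fitting the replicate number as a block gave 1 gene higher in siTfap4 than in siZic2. Within 1.5 times, the block gave 11 genes lower in siTfap4 than in siNeg, adding Hnrnpu, Srsf7 and Srsf9. In that fit 14.3% of all genes were called lower. The numbers share no stated culture or day: deviations of same-numbered libraries correlated at -0.04 to 0.33 over the group pairs. The cause of these shifts was not tested.

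Of 936 values of single genes, 829 kept sign and call, 73 lost a call, 19 gained one and 15 turned sign. The turned signs belonged to 7 genes, none of them called in the reported fit or at the turned sign. With GC and length correction the siTfap4 values were 0.0857 for Hnrnpa0, 0.0433 for Hnrnpa1, -0.0251 for Hnrnpul1 and 0.21 for Hnrnpul2. Hnrnpul2 was at 0.0018 under the filter of 5 CPM and at 0.0047 with protein-coding genes alone. With a library left out, siTfap4 values ranged from -0.77 to 0.24 for Hnrnpa1, -0.83 to 0.16 for Hnrnpc, -2.01 to 0.10 for Hnrnpf, -0.16 to 0.0886 for Hnrnpr and -0.29 to 0.20 for Hnrnpul2, and siWiz values from -1.60 to 0.50 for Hnrnpf and -0.84 to 0.16 for Hnrnpa1. With 2 libraries per group and totals from 8326675 reads, small changes of genes such as Hnrnph2 and Srsf12 were not detectable.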
